A study of Drosophila melanogaster with 6 samples.

Results

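*Sex-lethal* (*Sxl*), *transformer* (*tra*), *doublesex* (*dsx*) and *fruitless* (*fru*) form the splicing cascade that sets sex in *Drosophila melanogaster*. All transcripts of these 4 genes in the deposited table were taken, 37 of 28071: 19 of *Sxl*, 1 of *tra*, 5 of *dsx* and 12 of *fru*. The study sequenced poly-A RNA of dissected brains, with the blood-brain barrier (BBB) attached, from males aged 4 to 5 days. In *SPG-GAL4/UAS-traF* males, called males with feminized BBB, a driver active in subperineurial glia expressed the female form of Transformer. Control males had 1 element each, the driver in *SPG-GAL4/+* and the transgene in *UAS-traF/+*, and each genotype had 2 libraries. All 3 genotypes were in a *w1118* background, from stocks outcrossed to a Cantonized *w1118* line. RNA came from whole brains, of which the driver's cells are a small part, so fewer cells of a type and less RNA per cell cannot be told apart. The labels call the 2 libraries of a genotype biological replicates. The study's methods state that brains were dissected for each genotype and replicate. They do not say whether the replicates of a genotype came from separate cultures. The p-values measure the spread between these libraries.

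In females, Sex-lethal protein keeps the stop-containing male exon out of its own mRNA and moves the splice of *tra* to the site that gives a full-length protein. Transformer, with Transformer-2, then moves the splicing of *dsx* to its female 3′ exon and of the most upstream *fru* transcripts, from promoter P1, to a female 5′ splice site. In males these steps are left at their default, which gives male Doublesex and male Fruitless. Both are transcription factors that shape the nervous system for courtship.

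Total counts were between 32839081 and 37608924 per library. The replicates of *SPG-GAL4/+* differed most: the chi-square per degree of freedom between replicates was 62.5 in that genotype, 18.0 in males with feminized BBB and 22.0 in *UAS-traF/+*. Markers of subperineurial glia (8 of 8 measured, 0 called) summed to between 21962 and 22366 normalized counts in males with feminized BBB and to between 21110 and 22817 in controls. The markers of all glia (4 of 4 measured, 0 called) summed higher in both libraries of males with feminized BBB (236475 and 239442) than in any control (186090 to 231955), with a median log2 fold change of 0.18. Of these 4 markers, 3 were fitted higher and 1 lower, and only 1 lay above all controls by itself. Markers of the retina (6 of 6 measured, 0 called) summed to between 3091 and 4153 in males with feminized BBB and to between 3278 and 6163 in controls. All 6 were fitted lower in males with feminized BBB, with a median log2 fold change of -0.45. The testis markers, a check on carried-over tissue, summed to between 21.1 and 34.1 in males with feminized BBB and to between 26.2 and 164 in controls, and the 164 was in replicate 2 of *SPG-GAL4/+*. The part of these differences in the results was not tested.

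The sexes' isoforms were told apart by exon structure in the annotation (assembly BDGP6.54), which lists 49 transcripts of these genes. Of these, 12 are not used here, and they include most female forms: *tra-RA*, *dsx-RB* and *dsx-RG*, and *fru-RC*, *fru-RH* and *fru-RO*, which are 3 of the 4 P1 transcripts with the female splice site. The other 6 are *Sxl* transcripts. The female shares given for *dsx* and *fru* therefore cover only the transcripts in the table and are no full measure of female splicing. *dsx* lies on the minus strand of chromosome 3R, at 7924323 to 7967408. Its female 3′ exon, as in *dsx-RF*, spans 7931168 to 7935653 (4486 nt), and the male 3′ exons span 7930171 to 7930687 and 7924323 to 7925360. *fru* lies on the minus strand of 3R at 18414273 to 18545586. Its P1 transcripts share a first exon of 474 nt at 18545113 to 18545586, and the female splice site lies 1601 nt downstream of the male one. *Sxl* lies on the minus strand of X at 7074550 to 7098053, and its male exon starts at 7088578 and is 190 or 172 nt long. *tra* lies on the minus strand of 3L at 16590059 to 16591050.

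**Figure D1:**
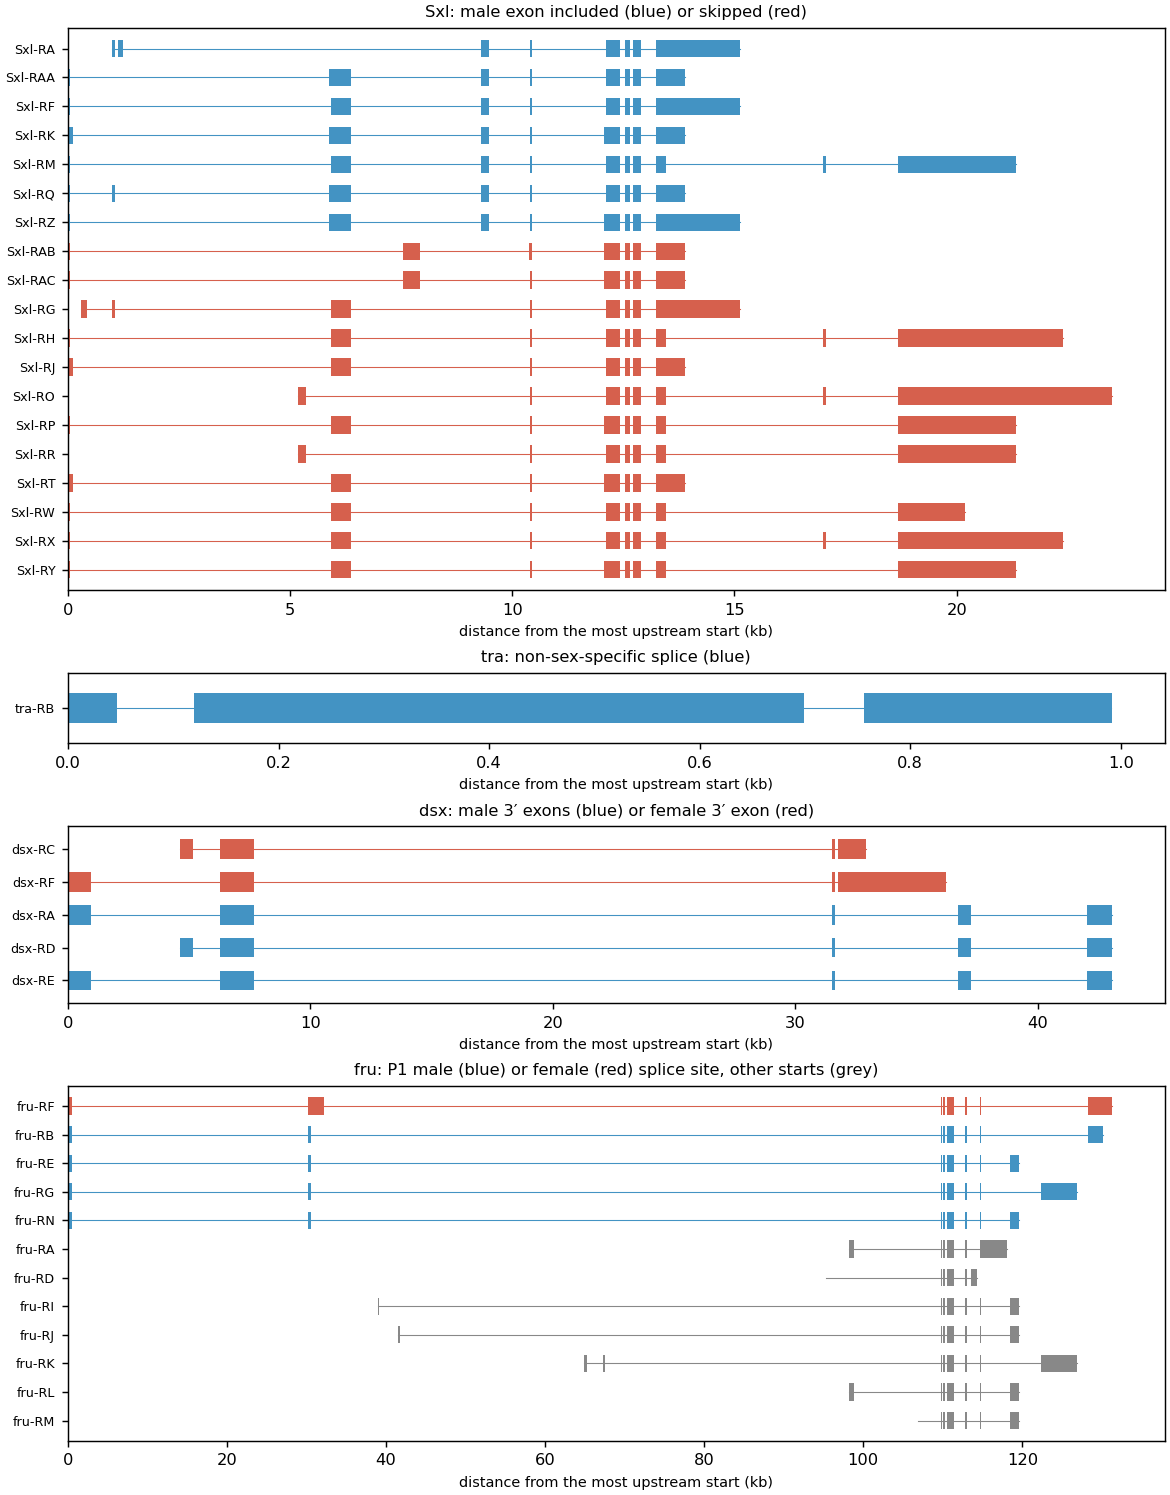
Exon structures of the 37 transcripts, with boxes for exons and lines for introns, drawn to scale as distance in kb from the most upstream start of each gene. Colors mark the isoform classes: 7 *Sxl* transcripts hold the male exon and 12 do not, 2 *dsx* transcripts end in the female exon and 3 in the male exons, and 5 *fru* transcripts start at P1.

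The transgene supplies female *tra* mRNA, so *tra* was read first as a check of the labels. Its only transcript in the table, *tra-RB*, is the non-sex-specific splice form. It held 539 and 558 normalized counts in males with feminized BBB, 617 and 578 in *SPG-GAL4/+* and 544 and 508 in *UAS-traF/+*. Both libraries of *SPG-GAL4/+* were the highest, and males with feminized BBB overlapped *UAS-traF/+*. The log2 fold change of the gene against the pooled controls was -0.03 (SE 0.10, 95% interval -0.28 to 0.21). All 687 nt of the female splice form also lie in *tra-RB*, and 175 nt of *tra-RB* are not in it. The *tra* count therefore cannot separate female from non-sex-specific mRNA. It was not raised in males with feminized BBB, nor were the female shares of *dsx* and *fru* transcripts. These counts cannot decide whether the label holds. Most female forms are not used here, and the driver's cells are a small part of the brain. The word "feminized" is used here only as a name for the genotype in the labels. Exons of *tra* also overlap 74 nt of *l(3)73Ah* on the other strand, whose own log2 fold change was 0.06 (SE 0.06).

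Of the 4 genes, *Sxl* was the most abundant per length and *dsx* the least. In TPM, which corrects counts for annotated length and library total, the mean over 6 libraries was 191 for *Sxl* (158 to 248), 68.5 for *fru* (61.8 to 84.1), 38.9 for *tra* (33.2 to 47.4) and 8.59 for *dsx* (7.05 to 9.61). The ranges of the 4 genes did not overlap. The median of 9777 genes was 30.2 TPM, so only *dsx* lay under it.

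*dsx* encodes the Doublesex transcription factor, and its sum was lower in both libraries of males with feminized BBB than in any control. The sum was 512 and 561 normalized counts in males with feminized BBB, 653 and 677 in *SPG-GAL4/+* and 676 and 726 in *UAS-traF/+*. Its log2 fold change against the pooled controls was -0.35 (SE 0.08, 95% interval -0.52 to -0.17). This did not pass the test over all genes (edgeR quasi-likelihood, unadjusted p = 0.0019, Benjamini-Hochberg adjusted p = 0.805). Of 9777 genes, 0% were called (458 had an unadjusted p under 0.05), 14.1% had both feminized libraries outside the controls and 8.17% had both below. The log2 fold change was -0.32 against *SPG-GAL4/+* (edgeR adjusted p = 0.663, 0.0102% of genes called) and -0.37 against *UAS-traF/+* (edgeR adjusted p = 0.455, 0.102% called), while the controls differed by -0.05.

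The adjusted p of *dsx* depended on which libraries and rows were fitted. Without replicate 2 of *SPG-GAL4/+* it was 0.670 (edgeR). Without replicate 1 of *SPG-GAL4/+* the log2 fold change was -0.34 and the edgeR adjusted p 0.0998, just under the threshold of 0.1, in a fit that called 240 of 9763 genes (2.46%). That call also turned on 10 transcripts with no annotated gene, which were left out of the gene table after the results of both tables had been seen. With them kept as rows of their own, the same fit gave an edgeR adjusted p of 0.100288 and called 65 of 9773 rows. DESeq2 with all libraries gave an adjusted p of 0.202. Exons of *dsx* overlap 169 nt of *lds* on the other strand, in the last male exon, and the log2 fold change of *lds* was -0.06 (SE 0.22).

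Counts were assigned to male and female *dsx* isoforms in every library, and both were lower in males with feminized BBB. The female exon lies within the intron that male transcripts splice out, and the 3314 nt that only *dsx-RF* has lie there, so these counts cannot tell spliced female mRNA from unspliced male RNA. Transcripts with the female 3′ exon held 185 and 221 normalized counts in males with feminized BBB, 267 and 256 in *SPG-GAL4/+* and 239 and 297 in *UAS-traF/+*. Those with the male 3′ exons held 327 and 340, 386 and 421, and 437 and 430 in the same order. Neither class overlapped the controls, and 8.17% of 9777 gene sums also had both feminized libraries below all controls. The 2 classes make up the *dsx* sum given above, so they are no separate finding. Neither passed the test (edgeR, log2 fold change -0.38 with SE 0.13 and adjusted p = 0.928 for the female class, and -0.32 with SE 0.08 and adjusted p = 0.830 for the male class). In the table with the genes split into classes, 0% of 9781 rows were called, and 460 had an unadjusted p under 0.05.

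The balance of the sexes' *dsx* isoforms did not separate the genotypes. The female class made up 36.1% and 39.4% of *dsx* counts in males with feminized BBB, 40.9% and 37.8% in *SPG-GAL4/+* and 35.4% and 40.8% in *UAS-traF/+*. The mean difference was -0.949 percentage points (exact two-sided permutation test, p = 0.667, with 0.133 the smallest p that 2 libraries against 4 allow). It had no stable direction: it was 0.685 without replicate 1 and -2.58 without replicate 2 of males with feminized BBB, and 0.209 after division by transcript length, when the share was between 22.3% and 27.3% over the 6 libraries.

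A single transcript carried most of each *dsx* class. *dsx-RD* (male) held 327 and 340 normalized counts in males with feminized BBB, 386 and 418 in *SPG-GAL4/+* and 428 and 430 in *UAS-traF/+*, a log2 fold change of -0.32 (SE 0.11, edgeR adjusted p = 0.890). *dsx-RF* (female) held 185 and 201, 267 and 256, and 239 and 297 in the same order, a log2 fold change of -0.46 (SE 0.15, edgeR adjusted p = 0.854). *dsx-RC*, the other female form, had counts only in replicate 2 of males with feminized BBB (20.5 normalized counts). *dsx-RA* and *dsx-RE* have the same exons and at most 4.2 normalized counts each.

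**Figure D2:**
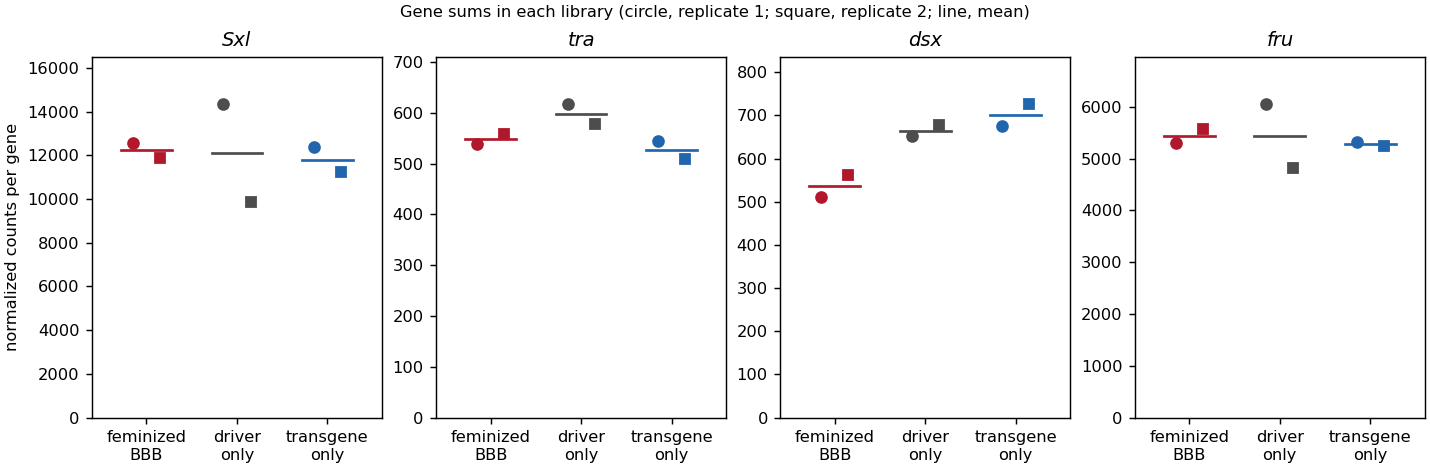
Normalized counts summed per gene in each of the 6 libraries, with circles for replicate 1, squares for replicate 2 and lines for the genotype mean. Both libraries of males with feminized BBB lie below all 4 controls for *dsx* (512 and 561 against 653 to 726) and overlap them for the other genes.

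The sum of *fru* did not separate the genotypes. It was 5305 and 5570 normalized counts in males with feminized BBB, 6053 and 4818 in *SPG-GAL4/+* and 5320 and 5247 in *UAS-traF/+*, a log2 fold change of 0.02 (SE 0.12, 95% interval -0.25 to 0.29). P1 transcripts with the male splice site held 3774 and 3852, 4067 and 3163, and 3440 and 3513 in the same order. The P1 transcript with the female splice site, *fru-RF*, held 1077 and 1082, 1220 and 957, and 1207 and 1085. The log2 fold changes were 0.10 (SE 0.12) for the male and -0.05 (SE 0.12) for the female class, and both classes overlapped the controls.

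As a share of P1 counts, *fru-RF* made up 22.2% and 21.9% in males with feminized BBB, 23.1% and 23.2% in *SPG-GAL4/+* and 26.0% and 23.6% in *UAS-traF/+*. The 2 libraries of males with feminized BBB lay under all 4 controls, by a mean of 1.90 percentage points (-1.90, exact two-sided permutation test, p = 0.133, adjusted p = 0.267 over 4 shares). That p is the smallest the design allows. *fru-RF* has 2801 nt and 1 junction of its own in the table. These nt include the 1601 nt that male P1 transcripts splice out and part of a longer last exon (3028 nt, 1828 in *fru-RB*). Counts from these nt cannot tell female splicing from unspliced RNA or from a male form with a longer 3′ end. The P1 share of all *fru* counts was 91.4% and 88.6% in males with feminized BBB and between 85.5% and 87.6% in controls, 3.04 percentage points higher in the mean (exact two-sided permutation test, p = 0.133). The counts outside P1 include *fru-RM*, described below, and without that transcript the P1 share overlaps between the groups.

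The other *fru* transcripts start downstream of P1, encode Fruitless proteins common to both sexes, and summed to 454 and 636 normalized counts in males with feminized BBB. In *SPG-GAL4/+* they summed to 765 and 698, and in *UAS-traF/+* to 673 and 649. Both feminized libraries were lower than every control, with a log2 fold change of -0.35 (SE 0.15) that did not pass the test (edgeR adjusted p = 0.999). This class includes *fru-RM*. That transcript held 1.9 and 0 of the counts in males with feminized BBB, 69.8 and 44.1 in *SPG-GAL4/+* and 270 and 169 in *UAS-traF/+*. Without *fru-RM* the groups overlap, so the class is no finding apart from that transcript. The log2 fold change of the class was -0.12 without replicate 1 and -0.60 without replicate 2 of males with feminized BBB.

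**Figure D3:**
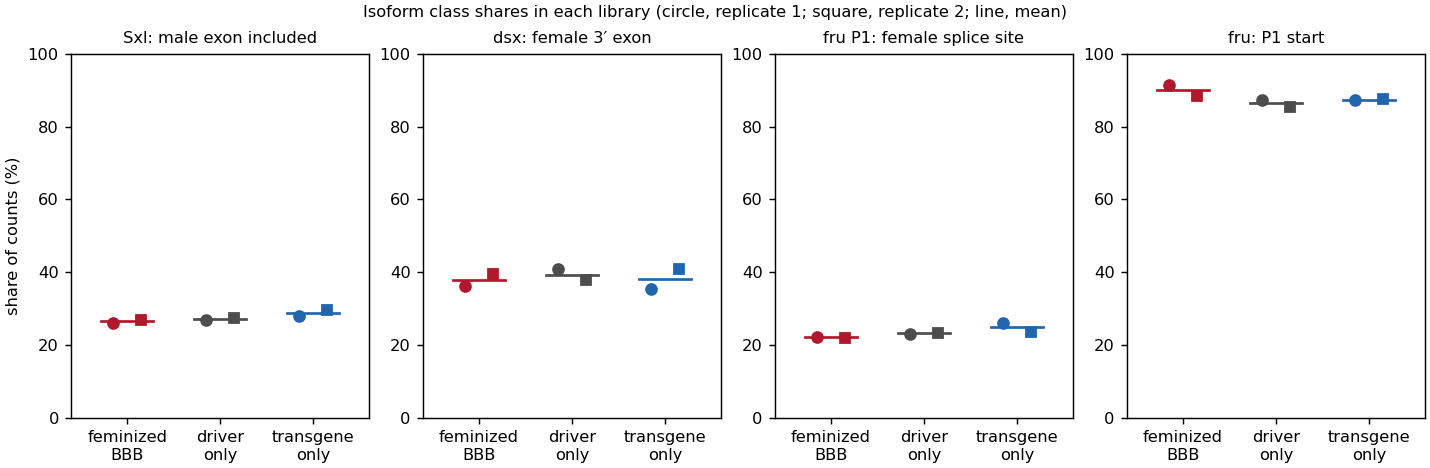
Share of counts, in percent, of the *Sxl* transcripts with the male exon, the *dsx* transcripts with the female 3′ exon, the *fru* P1 transcripts with the female splice site and the *fru* transcripts from P1, by library (circle, replicate 1; square, replicate 2; line, mean). The *dsx* female share overlaps between genotypes (35.4% to 40.9%), and the *fru* P1 share is highest in the feminized libraries (91.4% and 88.6%). Without *fru-RM* the P1 share would overlap the controls.

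Among single *fru* transcripts, *fru-RM* differed most. It held 1.9 and 0 normalized counts in males with feminized BBB, 69.8 and 44.1 in *SPG-GAL4/+* and 270 and 169 in *UAS-traF/+*. The groups did not overlap, and the 2 control genotypes also lay apart. Over pooled libraries the controls held 540 counts and the feminized libraries 2, a ratio of 142 per effective library size (exact 95% interval 39.2 to 1177, for counting error only). The edgeR test did not call it (log2 fold change -6.99, SE 1.38, adjusted p = 0.567), and 0.0141% of 21208 transcripts were called in that comparison. The fitted value moved from -10.09 without replicate 1 to -6.06 without replicate 2 of males with feminized BBB, so it is no measure of size. DESeq2 called it (adjusted p = 9.95e-05), in a fit that called 1.25% of 22454 transcripts.

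Only 72 nt and 1 splice junction set *fru-RM* apart from the other *fru* transcripts in the table. *fru-RL*, which has no nucleotide of its own, held 225 and 248 normalized counts in males with feminized BBB, 70.9 and 165 in *SPG-GAL4/+* and 107 and 189 in *UAS-traF/+* (log2 fold change 0.83, SE 0.39, edgeR adjusted p = 0.973). Its feminized libraries were above all controls. Summed, *fru-RL* and *fru-RM* gave 227 and 248 in males with feminized BBB, 141 and 209 in *SPG-GAL4/+* and 377 and 357 in *UAS-traF/+*. The sum in males with feminized BBB lay between those of the controls. These transcripts are among 6 that have the same last exon. All 6 together summed to 1798 and 1973 in males with feminized BBB and to between 1653 and 1877 in controls.

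Transcript proportions within a gene were tested in 5109 genes, of which 0.940% were called. *fru* was among them (edgeR diffSpliceDGE, Simes test, adjusted p = 0.0732 over 12 transcripts), and *fru-RM* was its only transcript called (adjusted p = 0.0284). *Sxl* (12 transcripts) and *dsx* (2 transcripts) were not called, each at an adjusted p of 1.00. The *fru* call was lost when any of 4 libraries was left out: the edgeR adjusted p was 0.426 and 1.00 without replicate 1 or 2 of males with feminized BBB, and 0.680 and 0.120 without replicate 1 or 2 of *UAS-traF/+*. Without replicate 1 of males with feminized BBB the test named *dsx* in its place, and without replicate 2 *Sxl*, but only 1 feminized library was then left. *dsx-RC* had all its 21 counts in replicate 2. *Sxl-RH* and *Sxl-RX* held 202 counts each in replicate 1 and at most 1 in any other library. No change in the usage of *dsx* or *Sxl* is read from these fits.

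*fru-RI* and *fru-RJ* differed between the controls themselves. *fru-RI* held 277 and 170 normalized counts in *SPG-GAL4/+*, 4.2 and 0 in *UAS-traF/+*, and 6.7 and 155 in males with feminized BBB. Between the controls its log2 fold change was 6.68 (edgeR adjusted p = 0.568, 0.0377% of transcripts called; 10.81 and 5.72 without replicate 1 or 2 of *UAS-traF/+*), and DESeq2 called it (adjusted p = 0.00518, 2.49% called). *fru-RJ* held 20.7 and 18.2 in *SPG-GAL4/+* and 0 in the other 4 libraries, with no call.

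The other 8 *fru* transcripts were not called. *fru-RE*, a P1 male form, held 1461 and 1388 normalized counts in males with feminized BBB, above all controls (977 to 1348), with a log2 fold change of 0.28 (SE 0.15). *fru-RA* held 101 and 95.5, below all controls (121 to 206), with a log2 fold change of -0.60 (SE 0.29), and *fru-RD* held 41.2 and 49.7, also below (54.6 to 59.3). *fru-RG*, another P1 male form, held 1410 and 1491 against 1191 to 1776 in controls. *fru-RB*, *fru-RF*, *fru-RK* and *fru-RN* overlapped the controls as well.

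**Figure D4:**
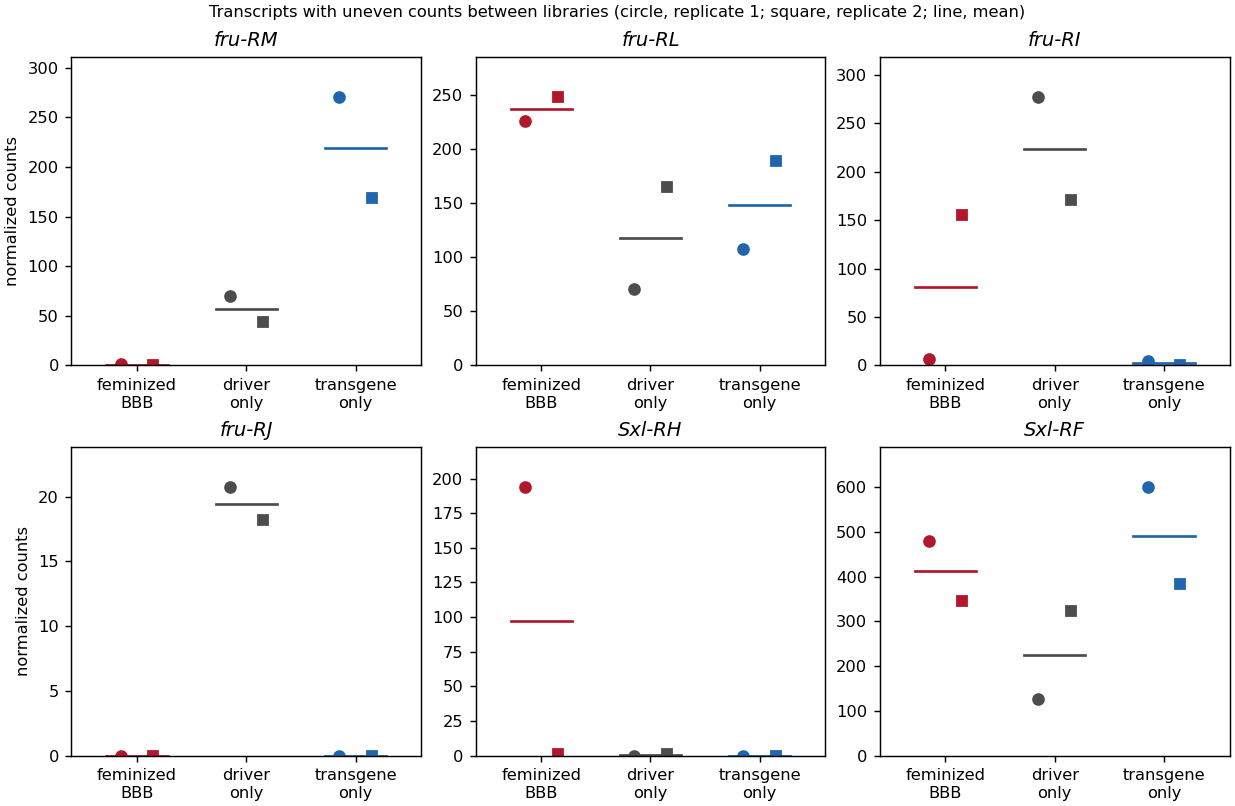
Normalized counts of 6 transcripts whose counts were uneven between libraries (circle, replicate 1; square, replicate 2; line, genotype mean). *fru-RM* is near 0 in males with feminized BBB (1.9 and 0) and lowest among controls in *SPG-GAL4/+*, *fru-RI* and *fru-RJ* are highest in *SPG-GAL4/+*, and *Sxl-RH* has most of its counts in 1 library (194).

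*Sxl*, the switch at the head of the cascade, did not separate the genotypes. Its sum was 12574 and 11878 normalized counts in males with feminized BBB, 14342 and 9855 in *SPG-GAL4/+* and 12393 and 11216 in *UAS-traF/+* (log2 fold change 0.03, SE 0.16, 95% interval -0.35 to 0.41). The 2 libraries of *SPG-GAL4/+* were the highest and the lowest. The log2 fold change was -0.04 (SE 0.14) for transcripts with the male exon and 0.06 (SE 0.17) for those without it, and both overlapped the controls.

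The male exon was in 26.1% and 26.9% of *Sxl* counts in males with feminized BBB, 26.7% and 27.5% in *SPG-GAL4/+* and 27.8% and 29.6% in *UAS-traF/+* (exact two-sided permutation test, p = 0.267). Transcripts assigned without the male exon thus made up most *Sxl* counts in all of these male brains. However, 65.7% of the counts were on 8 transcripts whose last exon begins at 7079367. Among these only *Sxl-RM* holds the male exon, with at most 1.9 normalized counts in a library. The assignment thus went with the 3′ end and is no measure of how often the male exon was skipped. Of all *Sxl* counts, 53.5% were assigned to *Sxl-RO*, which begins at the exon of the early promoter. *Sxl-RO* held 6574 and 6195 normalized counts in males with feminized BBB, 7913 and 5111 in *SPG-GAL4/+* and 6903 and 6034 in *UAS-traF/+*. Its 1115 nt of its own all lie in the last exon, and it has no junction of its own. Its counts therefore show neither use of the early start nor skipping of the male exon.

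The remaining *Sxl* transcripts were not called by edgeR. *Sxl-RZ*, the most abundant form with the male exon, held 1992 and 1890 normalized counts in males with feminized BBB and between 1630 and 2406 in controls. *Sxl-RW* held 1532 and 1661 against 1023 to 1693 (log2 fold change 0.32, SE 0.20). *Sxl-RAB* held 128 and 107, below all controls (134 to 209), with a log2 fold change of -0.45 (SE 0.25). *Sxl-RF* ranged from 128 to 600 over the controls and was 479 and 346 in males with feminized BBB. *Sxl-RA*, *Sxl-RAA*, *Sxl-RAC*, *Sxl-RG*, *Sxl-RK*, *Sxl-RQ* and *Sxl-RT* overlapped the controls.

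*Sxl-RH* and *Sxl-RX* have the same exons, so their counts were split evenly between them. Each held 194 normalized counts in replicate 1 of males with feminized BBB and at most 0.97 in any other library. They were left out by the edgeR filter on low counts and called by DESeq2 (adjusted p = 0.0406), a call that rests on that library. *Sxl-RR* had no count, which at 0 allows up to 3 counts in a library, and *Sxl-RJ*, *Sxl-RM*, *Sxl-RP* and *Sxl-RY* together with the rare *dsx* forms had means under 10.

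**Figure D5:**
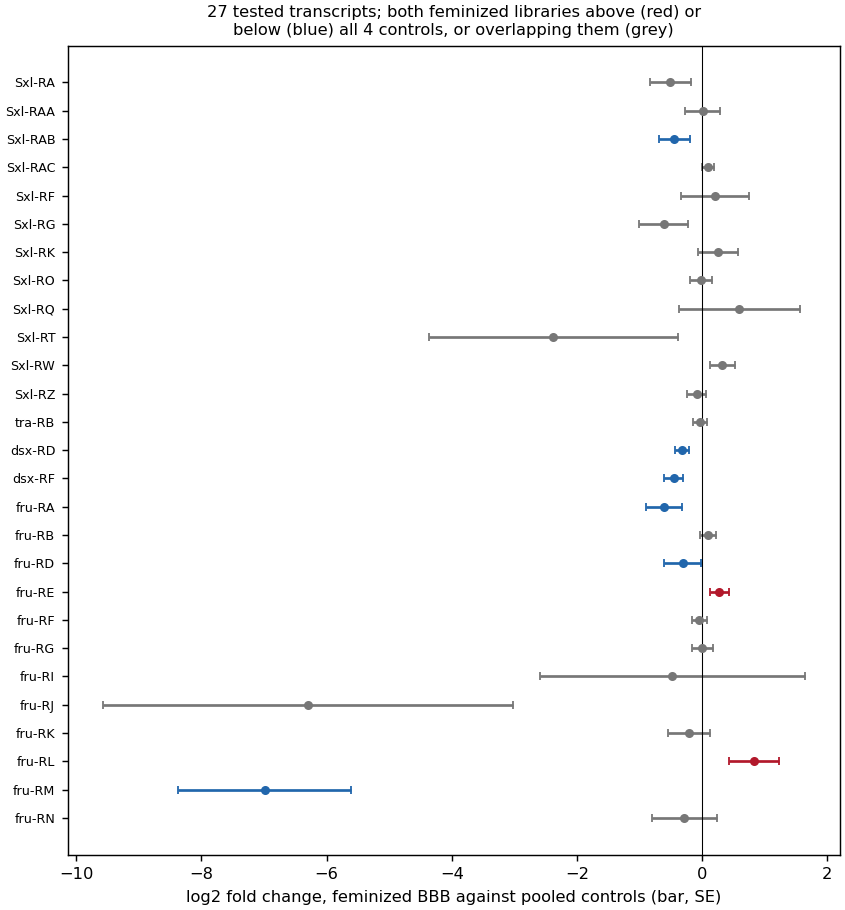
Log2 fold change of the 27 tested transcripts in males with feminized BBB against the pooled controls, with bars for the SE. Most lie near 0, and both feminized libraries were above all controls for 2 transcripts (red) and below for 6 (blue), with *fru-RM* farthest from 0 (-6.99).

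In all, 27 of the 37 transcripts passed the filter and 0 were called by edgeR. Unadjusted p-values under 0.05 were reached by 3 (*dsx-RD*, *dsx-RF* and *fru-RM*), against 5.32% of all transcripts tested. Both feminized libraries were above all controls for 2 of the 27 and below for 6, against 6.5% and 8.38% of all transcripts tested and 14.9% in either direction. The median log2 fold change of the 27 was -0.09, and that of all 21208 was -0.02. DESeq2 called 3 members, *fru-RM*, *Sxl-RH* and *Sxl-RX*, in a fit that called 1.25% of the 22454 transcripts with an adjusted p. Some of the 37 had no adjusted p in that fit. Against *SPG-GAL4/+* alone edgeR called 0 of the 27 (0% of all) with 3 at an unadjusted p under 0.05 (5.6% of all), and DESeq2 called *fru-RM* (1.3% of all). Against *UAS-traF/+* alone edgeR called 0 (0.0613% of all) with 4 at an unadjusted p under 0.05 (7.88% of all), and DESeq2 called *fru-RM*, *fru-RI*, *Sxl-RH* and *Sxl-RX* (3.11% of all). These comparisons share the feminized libraries.

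Genes that act with the cascade were read from 4 lists, and none was called by edgeR. DESeq2 called 2, in a fit that called 0.254% of 9463 genes. Of 10 splicing factors and m6A writer components that act on *Sxl*, edgeR called 0 and fitted 9 lower and 1 higher, with a median log2 fold change of -0.04. Over all genes tested, 5243 were fitted lower and 4534 higher. The lowest was *Ythdc1*, the nuclear m6A reader, at 4984 and 4978 normalized counts in males with feminized BBB and between 6298 and 7600 in controls (log2 fold change -0.47, SE 0.11, edgeR adjusted p = 0.805, DESeq2 adjusted p = 0.0899). The highest was *vir* (0.02). Of 10 partners of Transformer, Doublesex and Fruitless, 0 were called and the median was 0.01. The highest was *lola* (0.11). The SR protein gene *B52* was under all controls (log2 fold change -0.42, SE 0.12, edgeR adjusted p = 0.847), and *tra2*, the obligate partner of Transformer, was not (-0.05, SE 0.09).

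Of the dosage compensation list, 5 of 7 genes were measured and 0 were called (median 0.05, from *mle* at -0.06 to *mof* at 0.07). Of 10 targets of Doublesex and Fruitless, 8 were tested and 0 were called (median -0.05). *Yp2*, a yolk protein gene that Doublesex regulates, was lowest at 18.2 and 16.6 normalized counts against 25.0 to 46.9 in controls (log2 fold change -0.89, SE 0.34, edgeR adjusted p = 0.999), and *bab2* was highest (0.06). The median over all 9777 genes was -0.01.

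The genes whose profile over the 6 libraries was most like that of each member were found by the mean absolute difference of centered log2 CPM. For *Sxl* they were *CG13293* (0.015) and *Syt1* (0.023), for *tra* *ksr* (0.013) and *CG4554* (0.015), for *dsx* *fus* (0.030) and *DhpD* (0.041), and for *fru* *gce* (0.018) and *Trl* (0.019). The median difference over all 9776 other genes was between 0.13 and 0.18.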

How the data were processed

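The authors quantified transcripts with kallisto and deposited estimated counts, which are whole numbers, in a table of 28071 transcripts and 6 libraries. The kallisto version and transcriptome release are not given in the sources used here. The authors used DESeq2 on pooled controls with an adjusted p under 0.1. Isoforms were assigned from the Ensembl 115 annotation (BDGP6.54), which holds 28061 of the transcripts. Genes, members and lists were chosen with earlier results of these data known. Here edgeR 4.0.16 (R 4.3.3) fitted quasi-likelihood models to all transcripts, gene sums and isoform classes (TMM, filterByExpr, prior count 0.125, Benjamini-Hochberg, adjusted p under 0.1), with 2 libraries against 4 or in a fit of 3 genotypes. Normalized counts were scaled by TMM effective library sizes. The 10 transcripts with no annotated gene were left out of the gene table, a choice made after seeing both results. diffSpliceDGE tested proportions, and shares had an exact permutation test over 15 splits. Alternatives were DESeq2 1.42.0, limma 3.58.1 (voom), other size factors and filters, a replicate block, and leaving out each library. Statistical code was tested on simulated data. Members with a mean of at least 10 normalized counts were named, as were rarer ones called by another test or found in 1 group. For each list the highest and lowest gene were named, except 1 gene that is not reported here, and other genes named beside them (*B52*, *tra2*) were chosen after their values were seen. Likeness used an offset of 0.5. The library kit does not mark strand. Total counts were at least 32839081 per library. The interval on the ratio of *fru-RM* and the limit at 0 counts cover counting error only. Intervals on log2 fold changes include the spread between libraries.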

Additional observations from a re-analysis of the deposited data

Results flagged for a closer look

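In groups of 4 to 10 samples, a library far from the others was looked for over 44 values (28 transcripts, 4 gene sums, 8 isoform classes and 4 shares) in the 4 control libraries. Chance gives about 1 in 20 such cases. *Sxl-RAA*, with the male exon, held 970 normalized counts in replicate 1 of *SPG-GAL4/+* and between 540 and 597 in the other controls. *Sxl-RK*, also with the male exon, held 46.8 in replicate 1 of *UAS-traF/+* and between 70.9 and 74.7 in the others. The P1 share of *fru* counts was 85.5% in replicate 2 of *SPG-GAL4/+* and between 87.4% and 87.6% in the others.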

How the results depend on the processing

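DESeq2 called 3 member transcripts against the pooled controls, 1 against *SPG-GAL4/+*, 4 against *UAS-traF/+* and 1 between the controls (1.25%, 1.3%, 3.11% and 2.49% of all transcripts), where edgeR called 0 in each, and it called 2 pathway genes (0.254% of all genes). Without replicate 1 of *SPG-GAL4/+*, edgeR called 1 member gene (*dsx*, range over the left-out control libraries 0 to 1) and 3 pathway genes (*Ythdc1* and *B52* among them, range 0 to 3). Calls rose over all genes in that fit, to 240 of 9763 (2.46%), against 0 without any other single control library. With the 10 transcripts lacking a gene kept, an alternative chosen after seeing the data, the same fit called 0 member genes and 1 pathway gene (*Ythdc1*), with 65 of 9773 rows called (0.665%). Transcript usage called 0 member genes at an adjusted p under 0.05, with at least 10 counts in every library and with the replicate block (*fru* adjusted p 0.270), and between 0 and 1 over the left-out libraries. The call of *fru* itself was lost in 6 of 8 alternatives, and the cause was not tested. Among these is the filter of at least 10 counts in every library. It takes out *fru-RM*, the transcript behind the call (2 and 0 counts in males with feminized BBB), so it is no check of that call. The P1 share of *fru* was 4.60 points higher after length adjustment and 1.61 to 4.47 points higher over the left-out libraries. Over the left-out libraries the log2 fold change of *Sxl* ranged from -0.061 to 0.16, of *tra* from -0.087 to 0.039, of *fru* from -0.037 to 0.11, of the *fru* P1 female class from -0.13 to 0.021, of the *Sxl* class with the male exon from -0.13 to 0.064 and of that without it from -0.033 to 0.19. These changed sign and were not called, the lowest without replicate 2 of *SPG-GAL4/+* (*tra*: of *UAS-traF/+*) and the highest without replicate 1 of *SPG-GAL4/+*. With the 10 transcripts kept, *tra* was 0.039 without that library. Same-numbered replicates did not deviate together (correlations 0.001, -0.02 and 0.04 over 21208 transcripts), and apart from *fru* usage the block changed no call of a member.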
